A study of Mus musculus with 4 samples.

Results

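Fatty acid oxidation and the targets of peroxisome proliferator-activated receptor alpha (PPARα) were followed in cultured mouse hepatocytes. The cells came from mice with and without a liver deletion of dynamin-related protein 1 (Drp1), the GTPase that divides mitochondria. The 39 genes were chosen by name for their roles in these routes. They are the receptor gene Ppara, 5 genes of the carnitine shuttle, 10 of mitochondrial beta-oxidation, 3 of electron transfer, 6 of peroxisomal oxidation, 2 of ketone body metabolism, 4 acyl-CoA thioesterases, 3 of omega oxidation and 5 other PPARα targets. All 39 had a probe well above background on at least 1 array, among 20615 genes with such a probe, and 36 had it on all 4 arrays. Hepatocytes of C57BL/6 mice were collected 24 hours after seeding, in 4 groups: control and Drp1LiKO, each untreated or treated with 200 μM palmitate, a saturated fatty acid. Drp1LiKO mice carry Drp1 flox/flox and a Cre transgene under the albumin promoter, so the deletion is limited to cells that use that promoter. The methods give the controls as Drp1 flox/flox littermates, and the sample labels call the control hepatocytes wild-type. The methods name male animals. The age of the hepatocyte donors, the number of mice behind an array and the hours in palmitate are not stated for the arrays. No group was measured on more than 1 array, and there are no replicates. By its label, the untreated control array shares its raw data with another series. Both untreated arrays lay on 1 slide and both palmitate arrays on another, so palmitate and slide cannot be told apart, while each slide held both genotypes.

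Long-chain fatty acids enter mitochondria as carnitine esters, are shortened in repeated rounds of dehydrogenation, hydration, oxidation and thiolytic cleavage, and pass their electrons to the respiratory chain through the electron transfer flavoprotein. Peroxisomes shorten very long and branched chains, and cytochrome P450 enzymes of the Cyp4a family hydroxylate the omega end of fatty acids in the endoplasmic reticulum. PPARα, a nuclear receptor activated by fatty acids, pairs with the retinoid X receptor and is known for inducing genes of all these routes in the fasted liver.

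Levels below are log2 of the processed intensity, with 0 at the 75th percentile of each array, and can be compared between arrays for 1 gene but not between genes, since each probe has its own brightness. Differences are differences of these levels, so 1 is 2-fold, and a gene counted as changed between 2 arrays at 2-fold or more if at least 1 of them had the probe well above background. On the linear scale that percentile was 424 to 542, 44.7% to 51.1% of probes were well above background on an array, and the SD between repeat spots of a probe was about 0.03 to 0.04 log2 units, which covers spot noise within an array and says nothing of mice or cultures. The targeted gene Dnm1l, which encodes Drp1, had levels of 2.42 and 2.43 on the control arrays and 1.07 and 1.01 on the Drp1LiKO arrays, as the labels say. Its signal was thus lower but not absent in Drp1LiKO. A further, dim probe differed by -0.35 untreated and was not well above background on either palmitate array. All 7 measured hepatocyte markers were well above background on the 4 arrays, with albumin at 8.73 to 9.03.

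**Figure D1:**
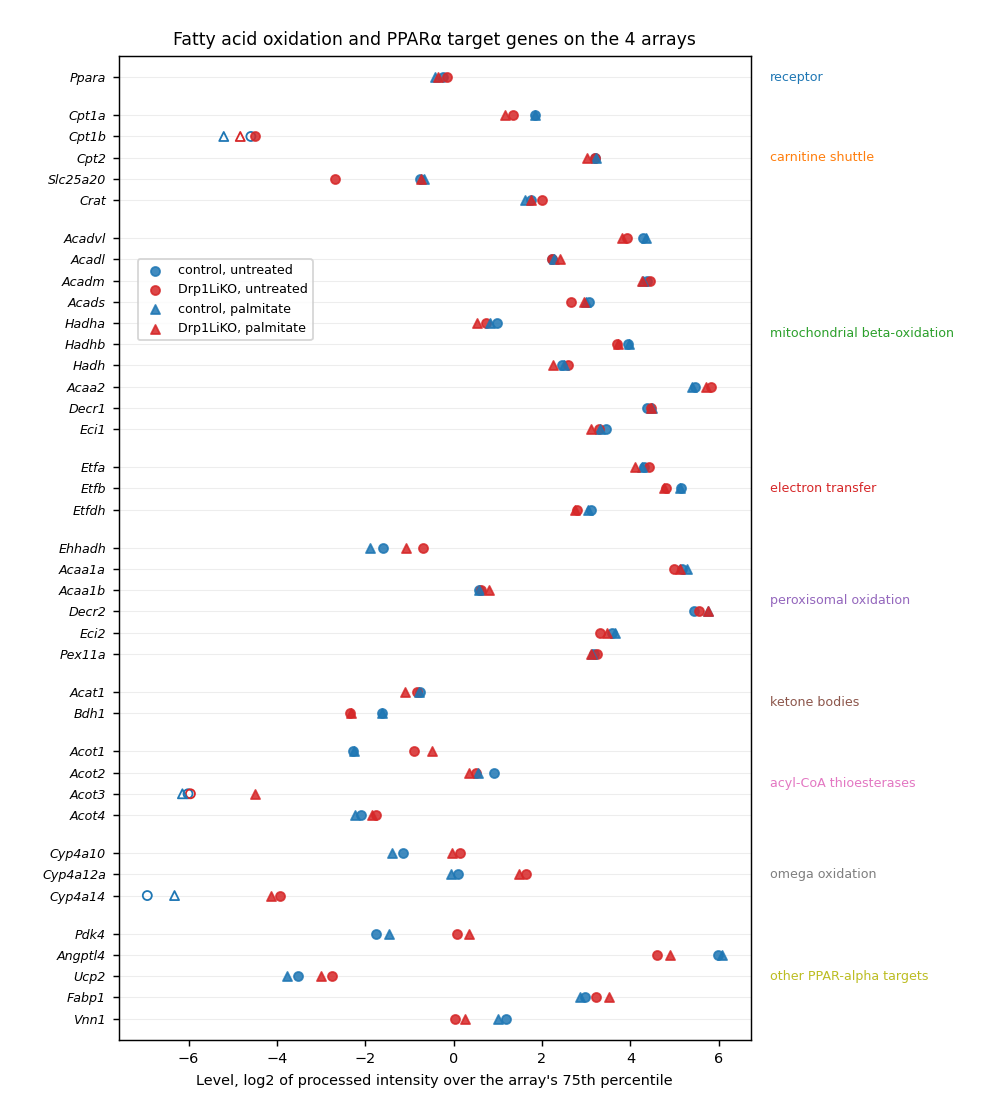
Levels of the 39 genes on the 4 arrays, grouped by role (blue control, red Drp1LiKO, circles untreated, triangles palmitate, 1 array each, open symbols not well above background). Positions are compared within a row only: Pdk4, Acot1 and the Cyp4a genes lie to the right on both Drp1LiKO arrays, Angptl4 and Vnn1 to the left, and most of the other genes lie close together.

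The genotypes differed most in omega oxidation, in Acot1 and among the other PPARα targets, and little in the enzymes of the mitochondrial spiral. Most genes on the arrays differed little too. Untreated, 8 of the 38 genes with a measured probe differed by 2-fold or more between Drp1LiKO and control, where 14.4% of all genes did. Of these, 5 were higher (8.84% of all genes) and 3 lower (5.58%). With palmitate 7 of 38 did, against 11.5% of all genes, 6 of them higher (7.26% of all genes) and 1 lower (4.26%). Cyp4a14 in both counts, and Acot3 in the second, were well above background on the Drp1LiKO array only. Among the 36 genes measured on both arrays, 4 were higher and 3 lower untreated, and 4 higher and 1 lower with palmitate. Of all genes so measured, 788 of 17652 were higher and 590 lower untreated. With palmitate 519 of 16784 were higher and 414 lower. The median difference of the 39 genes was close to that of all genes, at 0.06 against -0.02 untreated and -0.05 against -0.03 with palmitate. Of the 36 genes measured on all arrays, 5 differed by 2-fold or more in the same direction in both conditions, which is 13.9%, and 4.08% of all genes did so. These 5 were Pdk4, Acot1, Cyp4a10 and Cyp4a12a, higher in Drp1LiKO, and Angptl4, lower. After normexp background correction Acot1 was no longer among them, with an untreated difference of 0.96. Markers of macrophages, endothelial cells and stellate cells were higher on the Drp1LiKO arrays too, with list medians of 1.05 to 3.08, and their values stand after those of the 39 genes.

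**Figure D2:**
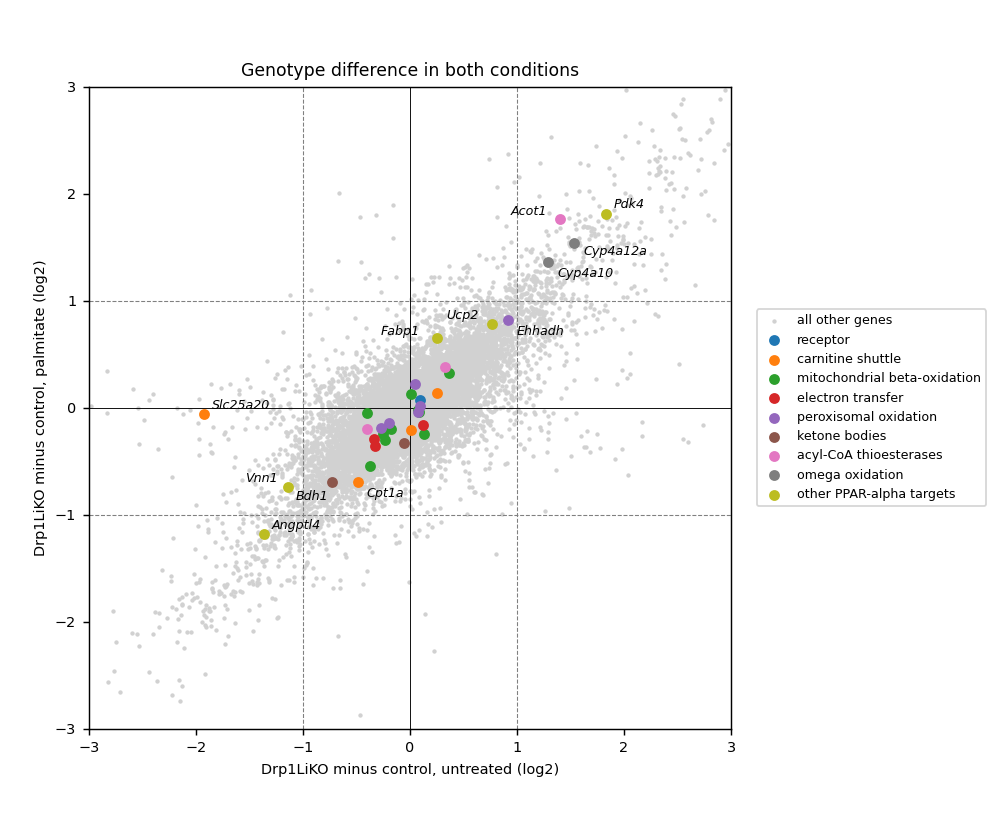
Difference between Drp1LiKO and control (log2) in untreated hepatocytes (x axis) and with palmitate (y axis) for the 36 genes measured on all 4 arrays, coloured by role, over all other genes in grey (59 of them lie beyond the axes). Dashed lines mark 2-fold, and Pdk4, Acot1, Cyp4a12a and Cyp4a10 lie beyond them at the upper right and Angptl4 at the lower left, while Slc25a20 is low in the untreated pair only.

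Ppara itself had levels of -0.23 and -0.43 on the control arrays, untreated and palmitate, and of -0.14 and -0.36 on the Drp1LiKO arrays. Drp1LiKO was higher by 0.09 untreated and 0.07 with palmitate, and a further probe gave 0.26 and 0.10. Taken over both conditions, the ranges of the genotypes overlapped.

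All 3 omega hydroxylases were higher in Drp1LiKO in both conditions. Cyp4a12a, which hydroxylates fatty acids including arachidonic acid and is the male-predominant member of the family in mice, had levels of 0.10 and -0.06 on the control arrays, untreated and palmitate, and 1.63 and 1.48 on the Drp1LiKO arrays, a 2.90-fold and a 2.91-fold difference. Cyp4a10, a classical PPARα target, had levels of -1.16 and -1.39 on the control arrays and 0.13 and -0.03 on the Drp1LiKO arrays, a 2.44-fold and a 2.57-fold difference. Neither pair of genotypes overlapped. The probe of Cyp4a14, also a classical PPARα target, was dim on the control arrays and well above background on both Drp1LiKO arrays, at levels of -3.93 untreated and -4.14 with palmitate. Set against the lowest signal that counted as above background on the control arrays, Cyp4a14 was at least 1.75-fold higher untreated and at least 1.02-fold higher with palmitate. The Cyp4a genes form a cluster of close paralogs, so cross-hybridisation between them cannot be told apart from each gene's own signal.

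For Cyp4a10 further probes were at hand, and their sequences are given with that of Cyp4a14 so that this shared identity can be judged. The probes are 60 bases long, match the transcript strand and are placed by the array's annotation in build mm9. The first Cyp4a10 probe lies at chr4:115198463-115198522, plus strand. The second spans an exon junction within chr4:115197445-115197926, plus strand. The Cyp4a14 probe lies at chr4:115168609-115168668, minus strand, near the 5′ end of its transcript.
Cyp4a10, first probe: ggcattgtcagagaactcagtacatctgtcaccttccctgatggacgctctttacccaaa
Cyp4a10, second probe: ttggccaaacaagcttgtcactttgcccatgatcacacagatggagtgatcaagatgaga
Cyp4a14: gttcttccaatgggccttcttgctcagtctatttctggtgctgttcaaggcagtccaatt
The first of these Cyp4a10 probes gave differences between Drp1LiKO and control of 1.47 untreated and 1.32 with palmitate, next to 1.29 and 1.36 for the brighter probe used above. The second, a dim probe, gave 0.89 untreated and did not clear background in control hepatocytes with palmitate. All 3 probes of the gene were higher in untreated Drp1LiKO hepatocytes.

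Pdk4 encodes the kinase that shuts off pyruvate dehydrogenase and so spares glucose when fatty acids are burnt. Its levels were -1.75 and -1.46 on the control arrays, untreated and palmitate, and 0.08 and 0.35 on the Drp1LiKO arrays, which made it 3.56-fold and 3.51-fold higher in Drp1LiKO. Angptl4, a secreted inhibitor of lipoprotein lipase, went the other way, with levels of 5.97 and 6.08 on the control arrays and 4.61 and 4.89 on the Drp1LiKO arrays, 2.57-fold and 2.27-fold lower. Both are textbook PPARα targets in liver, and their genotype differences were opposite in sign in each condition. Vnn1, the pantetheinase that releases cysteamine and the coenzyme A precursor pantothenate, had levels of 1.18 and 1.00 on the control arrays and 0.04 and 0.26 on the Drp1LiKO arrays, and was 2.20-fold lower untreated and 1.67-fold lower with palmitate.

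The remaining 2 genes of this group were higher in Drp1LiKO by less than 2-fold. Ucp2, a carrier of the inner mitochondrial membrane, had levels of -3.51 and -3.78 on the control arrays and -2.75 and -3.00 on the Drp1LiKO arrays, 1.70-fold and 1.72-fold higher. A further probe of Ucp2 gave differences of only 0.36 and -0.01. Fabp1, the liver fatty acid binding protein, had levels of 2.98 and 2.86 on the control arrays and 3.23 and 3.51 on the Drp1LiKO arrays, 1.19-fold higher untreated and 1.57-fold with palmitate.

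Acot1, a cytosolic thioesterase that returns acyl-CoA to free fatty acid and coenzyme A, had levels of -2.29 and -2.26 on the control arrays and -0.89 and -0.50 on the Drp1LiKO arrays, 2.63-fold and 3.39-fold higher. Its paralog Acot2, the mitochondrial form, went in the other direction, at differences of -0.40 untreated and -0.20 with palmitate, and Acot4, a peroxisomal form, was higher by 0.33 and 0.38. The peroxisomal Acot3 was well above background on the Drp1LiKO palmitate array only, at a level of -4.49, and the measured difference there of 1.65 has no lower bound above 1-fold, since the lowest signal that counted as above background on the control palmitate array was brighter. Sharing of signal between these near-identical paralogs cannot be told apart from each gene's own signal.

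The binding element of PPARα with its partner is a direct repeat of the half-site AGGTCA with 1 base between the copies, AGGTCANAGGTCA. Both strands of the 250 bases before the transcription start were searched for it in RefSeq promoters (GRCm38.p6), which were at hand for 29 of the 39 genes. Cyp4a10, Cyp4a12a, Cyp4a14, Angptl4 and Vnn1 were among the genes without one, so their promoters were not searched. With at most 1 mismatch the repeat was found in 1 of the 29 promoters, that of Fabp1, and in 0.566% of the promoters of 27025 genes. The exact half-site, which the repeat contains, was found in 5 of the 29 (Cpt1a, Acadvl, Acadm, Acot4 and Fabp1), that is 17.2%, and in 15.8% of all. The Fabp1 promoter is shown for this match, in capitals on the strand of the gene, where it reads as the reverse complement and begins 67 bases before the start. The promoters of Pdk4 and Acot1 are shown because these genes were higher in Drp1LiKO in both conditions, and they hold neither the repeat within 1 mismatch nor the half-site.
Fabp1, chr6:71199629-71199878, plus strand: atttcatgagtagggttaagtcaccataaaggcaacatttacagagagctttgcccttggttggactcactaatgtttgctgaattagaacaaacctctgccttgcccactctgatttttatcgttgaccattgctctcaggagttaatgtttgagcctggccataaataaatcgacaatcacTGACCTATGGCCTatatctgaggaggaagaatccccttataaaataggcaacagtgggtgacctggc
Pdk4, chr6:5496279-5496528, minus strand: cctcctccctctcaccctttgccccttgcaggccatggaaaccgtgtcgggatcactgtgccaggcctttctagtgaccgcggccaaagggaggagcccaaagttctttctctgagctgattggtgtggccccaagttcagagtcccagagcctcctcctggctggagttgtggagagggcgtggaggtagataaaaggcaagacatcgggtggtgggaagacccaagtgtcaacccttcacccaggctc
Acot1, chr12:84009252-84009501, plus strand: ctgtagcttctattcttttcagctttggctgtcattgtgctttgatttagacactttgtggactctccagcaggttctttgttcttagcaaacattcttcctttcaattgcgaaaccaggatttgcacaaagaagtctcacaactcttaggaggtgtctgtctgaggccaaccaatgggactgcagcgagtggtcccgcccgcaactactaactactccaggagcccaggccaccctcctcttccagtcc
Elements that lie outside these windows were not searched, and no binding was measured.

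In peroxisomal oxidation 0 of 6 genes differed by 2-fold or more in either condition (all genes 14.4% untreated and 11.5% with palmitate). The largest difference was that of Ehhadh, below 2-fold. Of all genes, 26.7% untreated and 21.1% with palmitate differed by 1.5-fold or more. Ehhadh, the bifunctional enzyme that hydrates and dehydrogenates enoyl-CoA in peroxisomes, had levels of -1.60 and -1.89 on the control arrays and -0.69 and -1.07 on the Drp1LiKO arrays, 1.88-fold and 1.76-fold higher. Acaa1a, the peroxisomal thiolase, had levels of 5.18 and 5.28 on the control arrays and 4.98 and 5.13 on the Drp1LiKO arrays. A further Acaa1a probe gave differences of -0.58 untreated and -0.01 with palmitate. Its paralog Acaa1b, the reductase Decr2, the isomerase Eci2 and Pex11a, which acts in peroxisome division, differed between genotypes by -0.27 to 0.22 over both conditions. A further probe of Eci2 gave -0.30 and -0.38.

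In the mitochondrial route most differences between the genotypes were small, as they were over all genes. Over the carnitine shuttle, the beta-oxidation spiral and electron transfer, 17 of the 18 genes were measured on all arrays, and 14 of them (82.4%) lay within 0.5 of 0 in both conditions, against 72.5% of all genes. By sign, 9 of the 17 were below 0 in both conditions (52.9%, all genes 45.4%) and 3 were above 0 in both (17.6%, all genes 33.1%). Among all genes, too, more were below 0 than above. With 17 genes, neither these shares nor that within 0.5 of 0 are read as a trait of the route.

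Cpt1a, which makes acylcarnitine at the outer membrane and is the controlled entry step, had levels of 1.84 and 1.85 on the control arrays and 1.35 and 1.15 on the Drp1LiKO arrays, 1.40-fold and 1.62-fold lower. The genotypes did not overlap. Cpt2, which returns the acyl group to coenzyme A inside, had levels of 3.19 and 3.22 on the control arrays and 3.20 and 3.01 on the Drp1LiKO arrays, and a second probe gave a palmitate difference of 0.50 where the first gave -0.21. Crat, which handles acetyl groups, was higher in Drp1LiKO by 0.25 and 0.14, and Cpt1b, the muscle isoform, was well above background on the untreated Drp1LiKO array only, at a level of -4.51.

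Slc25a20, the carrier that exchanges acylcarnitine for carnitine across the inner membrane, stood apart on 1 array. Its levels were -0.77 and -0.67 on the control arrays, untreated and palmitate, and -2.69 and -0.73 on the Drp1LiKO arrays. It was 3.79-fold lower in Drp1LiKO untreated and 1.04-fold lower with palmitate, and the whole difference rests on the untreated Drp1LiKO array. The single probe for the gene, shown because this value rests on it, lies at chr9:108585399-108585458, plus strand, in build mm9.
Slc25a20: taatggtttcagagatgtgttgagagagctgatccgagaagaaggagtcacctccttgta
No second probe or second array was at hand to set beside it.

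Within the spiral the very long chain dehydrogenase Acadvl differed by -0.37 and -0.54 between Drp1LiKO and control, untreated and with palmitate. Acadm, for medium chains, had levels of 4.37 and 4.29 on the control arrays and 4.44 and 4.26 on the Drp1LiKO arrays. Acadl, for long chains, had levels of 2.23 and 2.27 on the control arrays and 2.24 and 2.40 on the Drp1LiKO arrays, and the control values lay within or next to the Drp1LiKO range. The short-chain enzyme Acads differed by -0.40 and -0.05. The trifunctional protein, which carries out the later steps for long chains, was lower in both subunits. Hadha had levels of 0.97 and 0.82 on the control arrays and 0.74 and 0.52 on the Drp1LiKO arrays, and Hadhb differed by -0.26 and -0.25. The short-chain dehydrogenase Hadh differed by 0.13 and -0.25 and the thiolase Acaa2 was higher, by 0.37 and 0.33. Decr1 and Eci1, which prepare unsaturated chains for the spiral, differed by 0.08 and -0.04 and by -0.17 and -0.20.

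Of the electron transfer genes, the flavoprotein subunit Etfb differed by -0.33 and -0.36 and the membrane oxidoreductase Etfdh by -0.33 and -0.29, while the subunit Etfa differed by 0.12 and -0.16. Not all probes moved together here: a further probe of Etfdh gave 0.39 and 0.17 and 1 of 2 further probes of Hadhb gave 0.38 and 0.19. Over the genes with several probes well above background on both arrays, 11 of 16 further probes untreated and 11 of 15 with palmitate had the sign of the probe used.

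Both ketone body genes were below 0 in each condition. Bdh1, which interconverts acetoacetate and beta-hydroxybutyrate, had levels of -1.61 and -1.63 on the control arrays and -2.35 and -2.33 on the Drp1LiKO arrays, 1.66-fold and 1.62-fold lower, with a further probe at differences of -0.46 and -0.08. Acat1, the mitochondrial acetoacetyl-CoA thiolase, had levels of -0.77 and -0.78 on the control arrays and -0.82 and -1.11 on the Drp1LiKO arrays, a smaller difference.

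A limma model with genotype and palmitate as additive terms treats the 2 conditions of a genotype as its repeats and leaves 1 residual degree of freedom. The residual holds the difference of the palmitate responses as well as noise. Its SEs and p-values therefore say nothing of the spread between mice or cultures. After Benjamini-Hochberg adjustment over all 20615 genes the model called 0 of the 39 for genotype and 0 of all genes (0%). At an unadjusted p under 0.05, 16 of the 39 genes passed, 41.0% where 26.0% of all genes did. Among the lowest p-values were those of Pdk4, at 1.82 ± 0.07 (SE, 2 arrays per genotype, limma adjusted p = 0.119), Cyp4a12a at 1.54 ± 0.07 (limma adjusted p = 0.119) and Cyp4a10 at 1.32 ± 0.07 (limma adjusted p = 0.119). Angptl4 had a genotype term of -1.27 ± 0.09 and the same limma adjusted p. The term of Cpt1a was -0.59 ± 0.10 (limma adjusted p = 0.151) and that of Bdh1 was -0.71 ± 0.07 (limma adjusted p = 0.123). With an intensity trend in the variance prior, 16 of the 39 passed at a limma adjusted p under 0.05, 8 higher and 8 lower. Of all genes 26.0% did. At the same adjusted threshold, 10 of 36 passed on probes well above background on all arrays (15.6% of all genes). After another background correction, normexp, 5 of 39 did (6.30%).

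Few of these genes differed between palmitate and untreated arrays, and few of all genes measured on both arrays did. In control hepatocytes 0 of 36 measured genes differed by 2-fold or more between palmitate and untreated, where 5.70% of all genes did, and every difference lay between -0.36 (Acot2) and 0.30 (Decr2). These 36 were well above background on both arrays. Over all 16829 such genes, 143 were higher by 2-fold or more and 43 lower. In Drp1LiKO hepatocytes 2 of 39 did, where 7.04% of all genes did, and these were Slc25a20, at 1.96, and Acot3, at least 1.37-fold higher. The other 37 lay between -0.38 (Ehhadh) and 0.40 (Acot1). Counting only probes well above background on both arrays, 1 of 37 differed by 2-fold or more, Slc25a20. Over all 17853 such genes, 313 were higher and 119 lower. The median was -0.03 for control and -0.09 for Drp1LiKO, next to 0.01 and 0.00 over all genes. In the limma fit 0 of 39 were called for palmitate, 2 passed at an unadjusted p under 0.05 (5.13%, all genes 9.68%), and the lowest limma adjusted p was 0.512.

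Named targets of PPARα showed no common direction with palmitate. Pdk4 was higher in both genotypes, by 0.29 and 0.27, Angptl4 by 0.10 and 0.28, and Decr2 by 0.30 and 0.22. Ehhadh differed by -0.29 and -0.38, Cyp4a10 by -0.24 and -0.16, Cyp4a12a by -0.16 and -0.15, Ucp2 by -0.27 and -0.25 and Ppara by -0.20 and -0.22. A further probe of Ucp2 gave 0.33 in control and -0.05 in Drp1LiKO, and a further probe of Ppara 0.04 and -0.12. Of the further probes well above background on both arrays, 7 of 15 in control and 12 of 16 in Drp1LiKO had the sign of the probe used. Cpt1a differed by 0.01 in control and -0.19 in Drp1LiKO. For Ucp2 the sign in control turned under another background correction, at 0.03, and for Cpt1a in control it turned under another scaling, at -0.01.

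**Figure D3:**
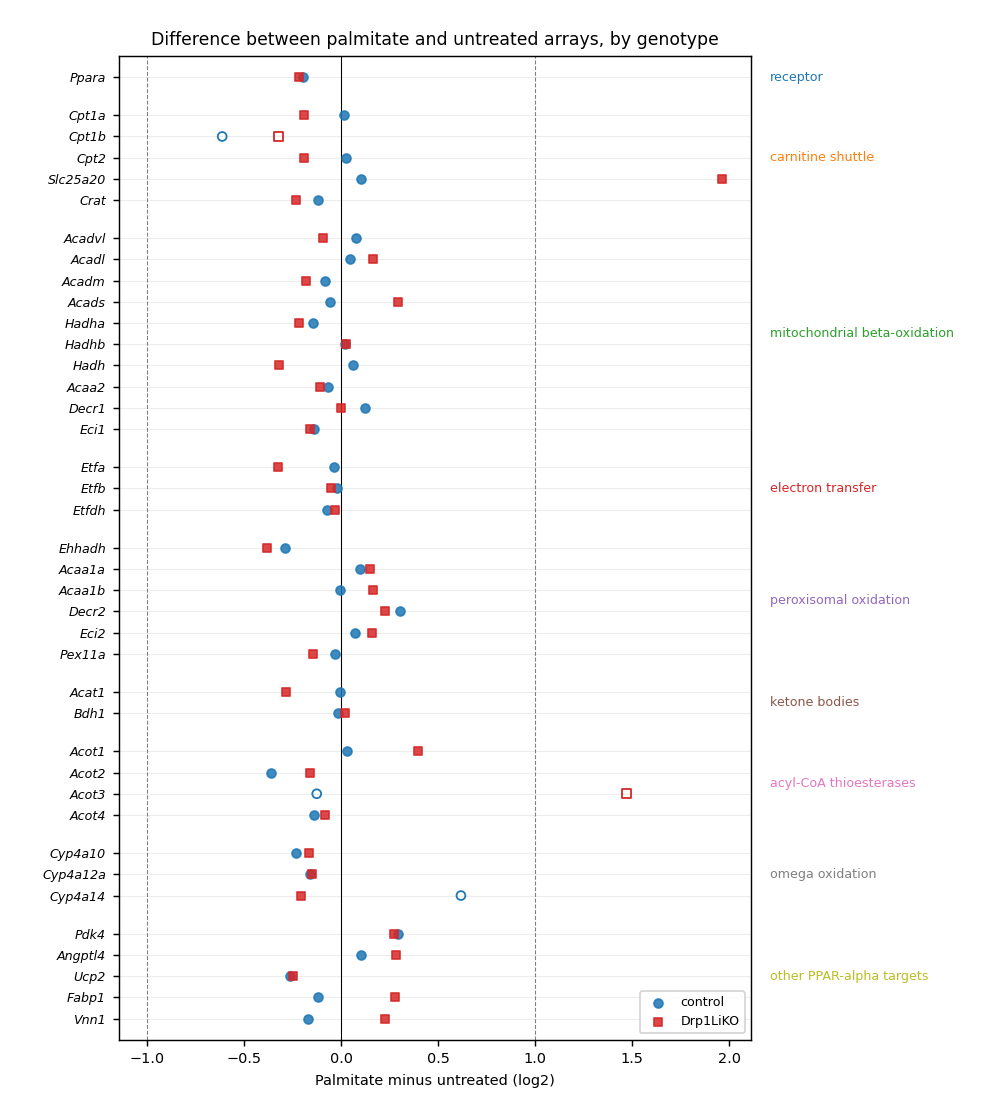
Difference between the palmitate and the untreated array (log2) for the 39 genes in control (blue circles) and Drp1LiKO (red squares), grouped by role, with open symbols where a probe was not well above background on both arrays. All but Slc25a20 and Acot3 in Drp1LiKO lie within the dashed 2-fold lines.

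The difference between the palmitate responses of the genotypes reached 2-fold for 2 of the 39 genes, where 10.8% of all genes did. They were again Slc25a20, at 1.86, and Acot3, at 1.60, each decided by a single array. Acot3 was dim on the other arrays, and with dim values raised to the lowest signal above background its difference was -0.11. Without Acot3, measured on 1 array, and Slc25a20, the differences ran from -0.82 for Cyp4a14, which was dim on the control arrays, to 0.40 for Fabp1 and Vnn1.

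Other genes of the pathway, taken from a list of 101 of which 97 were measured, were counted in the same way. Untreated, 10 were 2-fold or more higher in Drp1LiKO and 2 lower, and with palmitate 9 were higher and 1 lower, where 14.4% and 11.5% of all genes differed by 2-fold or more. The 33 measured peroxisome genes held none of these in either condition, with medians of -0.01 and 0.00, and the 18 of mitochondrial beta-oxidation and ketogenesis held 1 higher and 1 lower untreated. That higher gene was Acacb, which makes the malonyl-CoA that restrains Cpt1, at 1.29 and 1.01, and the lower one Cpt1c, at -1.45 and -0.71. Among partners and coactivators, Ppargc1a, the coactivator of oxidative genes, was higher by 1.21 and 1.27, Creb3l3, a liver transcription factor that acts with PPARα on Fgf21, by 1.18 and 1.21, Lpin1 by 1.25 and 0.87 and Ppard by 1.04 and 0.79.

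Of the 9 further omega oxidation genes measured, Cyp4a12b was higher by 1.58 and 1.55 and Cyp4a31 by 1.42 and 1.15, both close paralogs of genes above. Cyp4f15 differed by -0.68 untreated and 1.37 with palmitate and rested on its control palmitate array, at a level of -2.90 against -0.88, -1.55 and -1.53 on the others. Of the 21 other targets, Cidea was higher by 1.48 and 1.53 and the fatty acid transporter Slc27a1 by 1.28 and 1.08, and the fatty acid translocase Cd36, dim on the control arrays, was at least 6.56-fold and at least 3.13-fold higher. Fgf21, a hepatokine induced through PPARα, was lower, with differences of -1.12 and -0.96, and so was Pdk3, with -0.71 and -1.19. The peroxisomal biogenesis gene Pex10 had a level of -4.01 on the untreated Drp1LiKO array and of -3.04 to -2.51 on the others.

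**Figure D4:**
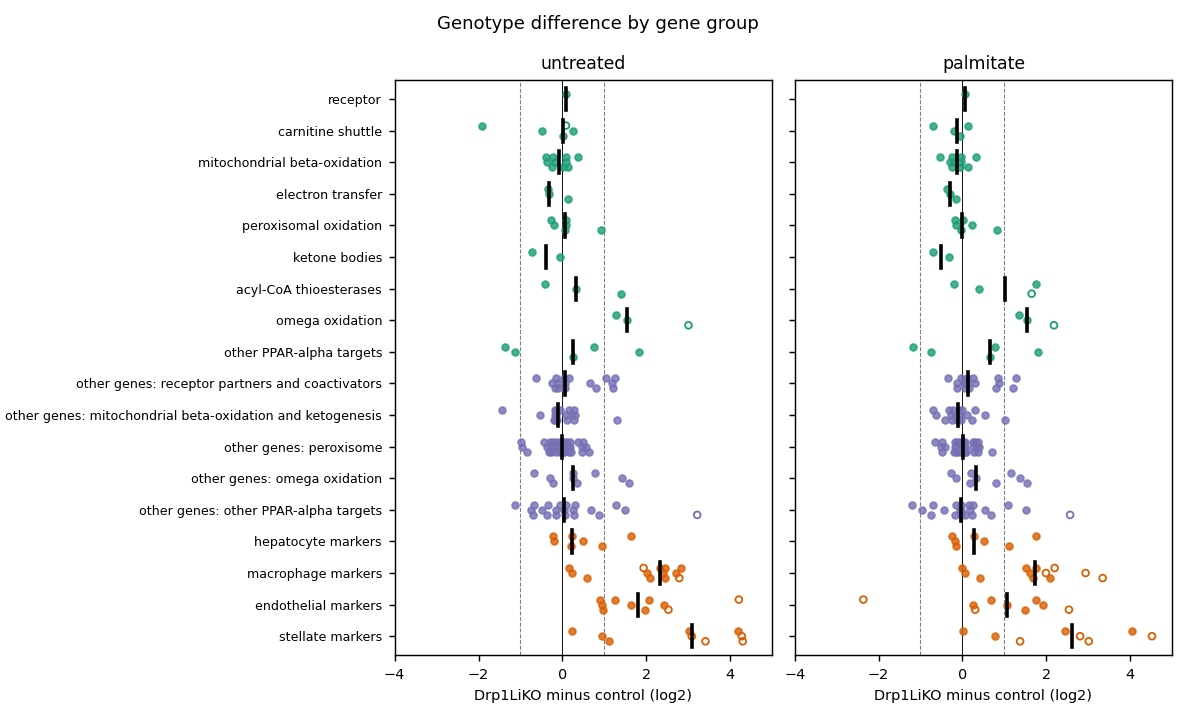
Difference between Drp1LiKO and control (log2) for each gene, by group, in untreated (left) and palmitate-treated (right) hepatocytes: green the 39 genes by role, purple other pathway genes, orange cell type markers, black bars the group medians, open circles genes measured on 1 array of the pair. Omega oxidation lies at medians of 1.53 and 1.54 and mitochondrial beta-oxidation at -0.08 and -0.12, while macrophage, endothelial and stellate markers lie to the right in both panels.

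Markers of other liver cells were higher on the Drp1LiKO arrays as well. Of the macrophage markers 10 of 13 were 2-fold or more higher untreated and 9 of 12 measured with palmitate (medians 2.34 and 1.72). Of the endothelial markers 7 of 10 and 5 of 9 were higher and, with palmitate, 1 was lower (medians 1.80 and 1.05), and of the stellate markers 7 of 9 and 6 of 8 were higher (medians 3.08 and 2.62). Summed over each list as intensity relative to the 75th percentile, macrophage markers came to 24.5 and 29.3 on the control arrays and 54.4 and 52.2 on the Drp1LiKO arrays, endothelial markers to 2.16 and 2.22 against 5.84 and 4.20, and stellate markers to 45.2 and 46.5 against 62.6 and 59.3. Most of the stellate sum was Acta2, which differed by 0.22 and 0.02, and the other 8 stellate markers came to 1.08 and 1.23 against 11.1 and 13.3. The Kupffer cell marker Clec4f, the endothelial marker Lyve1 and the stellate markers Col3a1, Pdgfrb and Lum were dim on both control arrays. So were the macrophage marker Vsig4 and the stellate marker Lrat, which were also dim on the Drp1LiKO palmitate array. The 7 hepatocyte markers summed to 1301 to 1402 on the 4 arrays, at median differences of 0.24 and 0.28, with Ahsg higher in Drp1LiKO by 1.64 and 1.76 and Cps1 by 0.94 and 1.12. In such cultures, more cells of a type and more RNA per cell cannot be told apart, and the part of the other cells in the differences of the 39 genes was not tested.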

How the data were processed

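RNA was labelled with Cy3 and hybridised to Agilent mouse arrays of 60-base probes, 1 array per group. The authors deposited scanner tables of intensity values on a linear scale. The file headers name Feature Extraction 10.7.1.1 and build mm9, and the submitters' processing notes name Agilent Feature Extraction 9.5.1.1. The labels and the methods name different RNA kits. In a deposited table of intensity values for the 4 arrays, the columns shared their sorted values to within 0.00203 (log2) and ranked the probes almost as the scanner data did, as quantile normalization gives, and this table served as an alternative.

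Groups came from the sample labels. The log2 of the processed signal minus the array's 75th percentile was used in Python 3.11.15 (pandas 2.3.3, numpy 2.4.6). Control and outlier spots were left out, and repeat spots were averaged. A gene was represented by its brightest probe among those flagged well above background on at least 1 array. With 1 array per group, pairs of arrays carry no p-value. Where 1 array of a pair was dim, the bound sets the bright one against the higher of the dim value and the lowest signal above background there. limma 3.58.1 in R 4.3.3 fitted genotype and palmitate additively, with a threshold of 0.05. Alternatives were normexp (offset 50), 2 scalings, the deposited table, probe means, other filters, a floor, 1.5-fold and an intensity trend. Values in all arrays were given for genes at 2-fold or more and a set of key enzymes. The 39 genes and all lists were chosen with earlier results of these data known.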

Additional observations from a re-analysis of the deposited data

How the results depend on the processing

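Genotype counts at 2-fold were 6 to 8 genes untreated and 5 to 7 with palmitate under the other scalings, filters and background correction. At 1.5-fold the counts were 11 untreated (26.7% of all genes) and 13 with palmitate (21.1%). For palmitate in Drp1LiKO and for the difference of responses, the count was 1, Slc25a20, under normexp, with dim values raised to the floor, and with probes required above background on every array compared. Raised to the floor, Acot3 turned to -0.32 for genotype with palmitate and to -0.11 for the difference of responses. The limma genotype calls were 16 of 39 with an intensity trend, 10 of 36 on probes above background on all arrays and 5 of 39 under normexp, and 0 under the others, and the palmitate calls were 0 under each. Normexp shrank dim genes: untreated Cyp4a14 was 0.54, Acot1 0.96 and Slc25a20 -1.40. With 1 array per group there were no replicate numbers to pair, and no array could be left out. The additive limma fit compares the genotypes within each slide. The number of arrays limits every value.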
